A study of Homo sapiens with 4 samples.

Results

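The genes described here encode the actin cytoskeleton and the transcription factor SRF with its cofactors, in cultured cells of the human melanoma line M14. They were chosen by name as a list of 54 genes, comprising actins, the motor myosin II, tropomyosins, calponins, crosslinkers, regulators of filament turnover, SRF and the MRTF cofactors. The platform annotation listed 174 probe sets for them among 54675 on the array. Of these, 161 named 1 of the genes alone, 10 named several genes and 3 were control probe sets of ACTB. The list held 48 genes with a probe set of their own, among 19775 such genes on the array.

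The 4 groups were the ARHGAP8 line in 3D, the empty-vector line in 3D, the ARHGAP8 line in 2D and the empty-vector line in 2D, with 1 array each. The ARHGAP8 line carried FLAG-tagged ARHGAP8, a GTPase-activating protein, on the plasmid pIRES2-eGFP, and the other line carried that plasmid without an insert. Both lines were selected with G418, sorted for eGFP and kept in G418 for the 4 days of culture, either embedded in growth factor-reduced Matrigel (3D) or on collagen-coated plastic (2D). The labels describe 1 stable line per plasmid, so a difference between the lines cannot be told apart from a difference between any 2 transfected lines.

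Cells build filaments from actin monomers and pull on them with bipolar filaments of myosin II, which is switched on by phosphorylation of its regulatory light chain. Tropomyosins and calponins lie along the filament, and crosslinkers such as alpha-actinin join filaments into bundles that end at adhesions to the matrix. The MRTF cofactors bind actin monomers; when filaments form and monomers run short, MRTF enters the nucleus and, with SRF, activates many of these same genes through a DNA element called the CArG box.

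Values are MAS5 signals scaled to a common trimmed mean, and signals below 72.3, the median of all probe sets, were set to that floor before log2 was taken. A gene was read from its own probe set with the highest mean, and was tested if above the floor on at least 2 arrays. Of the 54 genes, 47 were tested and 46 were above the floor on all 4 arrays. CNN1 (calponin 1, a smooth muscle protein) was below it on every array. ACTG1 (cytoplasmic gamma-actin) had only probe sets shared with ACTB, and TPM3, FLNA, FLNC, FHL1 and ACTR2 were not analysed here. The number of arrays limits the precision of every value, and signals of different probe sets are not compared as levels.

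The labels could not be checked on the transfected gene. The 4 probe sets naming ARHGAP8 all named a second gene too and read 4.02 to 14.8, below the floor. Whether they lie in the part carried by the plasmid was not analysed here. Of 8 melanoma markers, 6 were above the floor on all 4 arrays, among them MITF, MLANA, TYR, SOX10 and S100B, while PMEL was below it on every array. Their summed signals were 8539 and 9785 in 3D, against 5828 and 8626 in 2D, the ARHGAP8 line first. In the same limma test as below 3 of the 6 passed, where 2.83% of all genes tested were called higher and 4.15% lower. MITF, MLANA and TYR rose in 3D by 0.65, 1.01 and 0.88 log2 as means of the lines. Their ratios were 0.97, 1.84 and 1.30 in the ARHGAP8 line, but 0.33, 0.17 and 0.45 in the empty-vector line. On the 2D arrays MLANA read 489 in the ARHGAP8 line and 1614 in the empty-vector line. S100A1, S100B and SOX10 read 0.37, -0.08 and -0.35 without passing, with SOX10 lower in both lines. The part of this in the other culture ratios was not tested. The leukocyte markers PTPRC, CD3E and CD14 were below the floor on all arrays. Of the smooth muscle markers LMOD1 and CNN1 were below it, and 5 of 7 were above it on at least 1 array, with summed signals of 799 and 877 on the 3D arrays and 830 and 781 on the 2D arrays, the ARHGAP8 line first. Of 8 fibroblast markers 4 were above it on at least 1 array, with sums of 773 and 832 in 3D, against 592 and 824 in 2D, while COL3A1, LUM, PDGFRA and PDGFRB were below it throughout. Of 5 keratinocyte markers 2 were above it on at least 1 array, KRT10 and KRT1, with sums of 1342 and 736 in 3D and 1173 and 928 in 2D. The ARHGAP8 3D array stood apart in its control probe sets, with a median 18S ribosomal RNA signal of 626 against 27.7 to 49.4 on the other arrays, and every ratio below that uses this array carries that limit.

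The CArG box, a run of 10 bases that begins with CC and ends with GG around A and T bases, was searched in RefSeq promoters (GRCh38.p14), in the 250 bases upstream of each annotated start. It reads the same on both strands as a pattern, so 1 search covers both. At least 1 window with the box was found for 11 of the 48 listed genes with a promoter entry, or 22.9%, against 1.44% of 27305 genes. Genes with more annotated starts had more windows to match; counted by window the shares were 13.4% of 97 and 1.16% of 35116. The 11 were ACTG1, ACTG2, MYLK, TPM4, CNN2, ACTN1, FLNA, FHL1, FHL2, TES and SRF. The list was chosen to hold SRF-MRTF targets, with 20 of its 54 genes widely described as such, so a high share is in part built into the choice. Among listed genes with a window, the box was found for 2 of the 6 that fell in 3D and for 6 of the 35 tested that did not pass. MYL9, which also fell, had no promoter entry, nor did ACTB, TAGLN, ARPC1B, FSCN1 and PFN2. A match is a run of letters and not a measured binding site.

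Windows of 4 genes are shown, with the CArG box in capitals: ACTN1 and FHL2, which fell in 3D, and SRF and ACTG2, each with 2 boxes, which did not pass the test. ACTN1 and FHL2 had 4 windows each, SRF 2 and ACTG2 1, and for each gene 1 window with the box is printed. ACTN1 lies at chr14:68977567-68977816 on the minus strand, with the box starting 171 bases before the start site, and FHL2 at chr2:105399052-105399301 on the minus strand, with the box at 59 bases. SRF lies at chr6:43171019-43171268 on the plus strand, with boxes at 30 and 10 bases, and ACTG2 at chr2:73892758-73893007 on the plus strand, with boxes at 110 and 73 bases.
ACTN1: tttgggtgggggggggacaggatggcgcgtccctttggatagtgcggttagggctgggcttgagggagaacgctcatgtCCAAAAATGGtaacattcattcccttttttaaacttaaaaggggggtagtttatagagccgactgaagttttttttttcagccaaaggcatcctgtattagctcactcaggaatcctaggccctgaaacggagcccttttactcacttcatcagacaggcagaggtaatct
FHL2: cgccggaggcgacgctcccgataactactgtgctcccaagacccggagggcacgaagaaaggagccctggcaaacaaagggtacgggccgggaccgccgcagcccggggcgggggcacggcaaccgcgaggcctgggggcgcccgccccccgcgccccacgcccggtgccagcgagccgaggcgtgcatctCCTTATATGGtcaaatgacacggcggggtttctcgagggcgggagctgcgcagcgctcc
SRF: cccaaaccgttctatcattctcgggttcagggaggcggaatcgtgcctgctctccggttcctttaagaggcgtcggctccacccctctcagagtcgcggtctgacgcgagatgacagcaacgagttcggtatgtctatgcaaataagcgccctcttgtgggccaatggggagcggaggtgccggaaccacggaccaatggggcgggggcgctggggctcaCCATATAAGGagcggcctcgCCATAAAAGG
ACTG2: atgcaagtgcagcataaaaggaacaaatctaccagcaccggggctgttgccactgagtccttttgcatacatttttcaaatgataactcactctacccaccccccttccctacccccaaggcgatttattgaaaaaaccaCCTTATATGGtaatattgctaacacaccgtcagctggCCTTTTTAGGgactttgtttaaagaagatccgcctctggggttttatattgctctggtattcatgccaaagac

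The first comparison asked how these genes differed between culture in gel and culture on plastic. In 3D, 7 genes fell and 0 rose: MYL9, MYL6, TPM1, ACTN1, ACTN4, ZYX and FHL2. Over 9 alternative settings MYL9 and TPM1 passed in 7, MYL6 and ACTN1 in 6, ACTN4 and ZYX in 4 and FHL2 in 1, so the count depends on the processing. The 7 encode light chains of myosin II, a tropomyosin, both non-muscle alpha-actinins and a pair of LIM-domain proteins of adhesions. The test was limma's additive model of plasmid and culture with Benjamini-Hochberg adjustment over 13239 genes and a threshold of 0.05. It called 4.15% of all genes tested as lower and 2.83% as higher. At an unadjusted p under 0.05 there were 16 of the 47 genes and 2778 of all 13239. The model has 1 residual degree of freedom, so the moderated SE borrows most of its information from genes with similar signals.

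Over all 47 tested genes, those 7 included, the list leaned to lower signals in 3D. The median log2 ratio of 3D over 2D was -0.25 over the 47 genes and 0.03 over all genes tested. It was -0.25 in the ARHGAP8 line and -0.13 in the empty-vector line, against 0.04 and 0.01 over all genes. The 2 ratios share no array. Both were below 0 for 27 of the 47 genes, or 57.4%, against 28.9% of all genes tested, and both were above 0 for 8, or 17.0%, against 34.1%. These are descriptions without a test of the list.

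**Figure D1:**
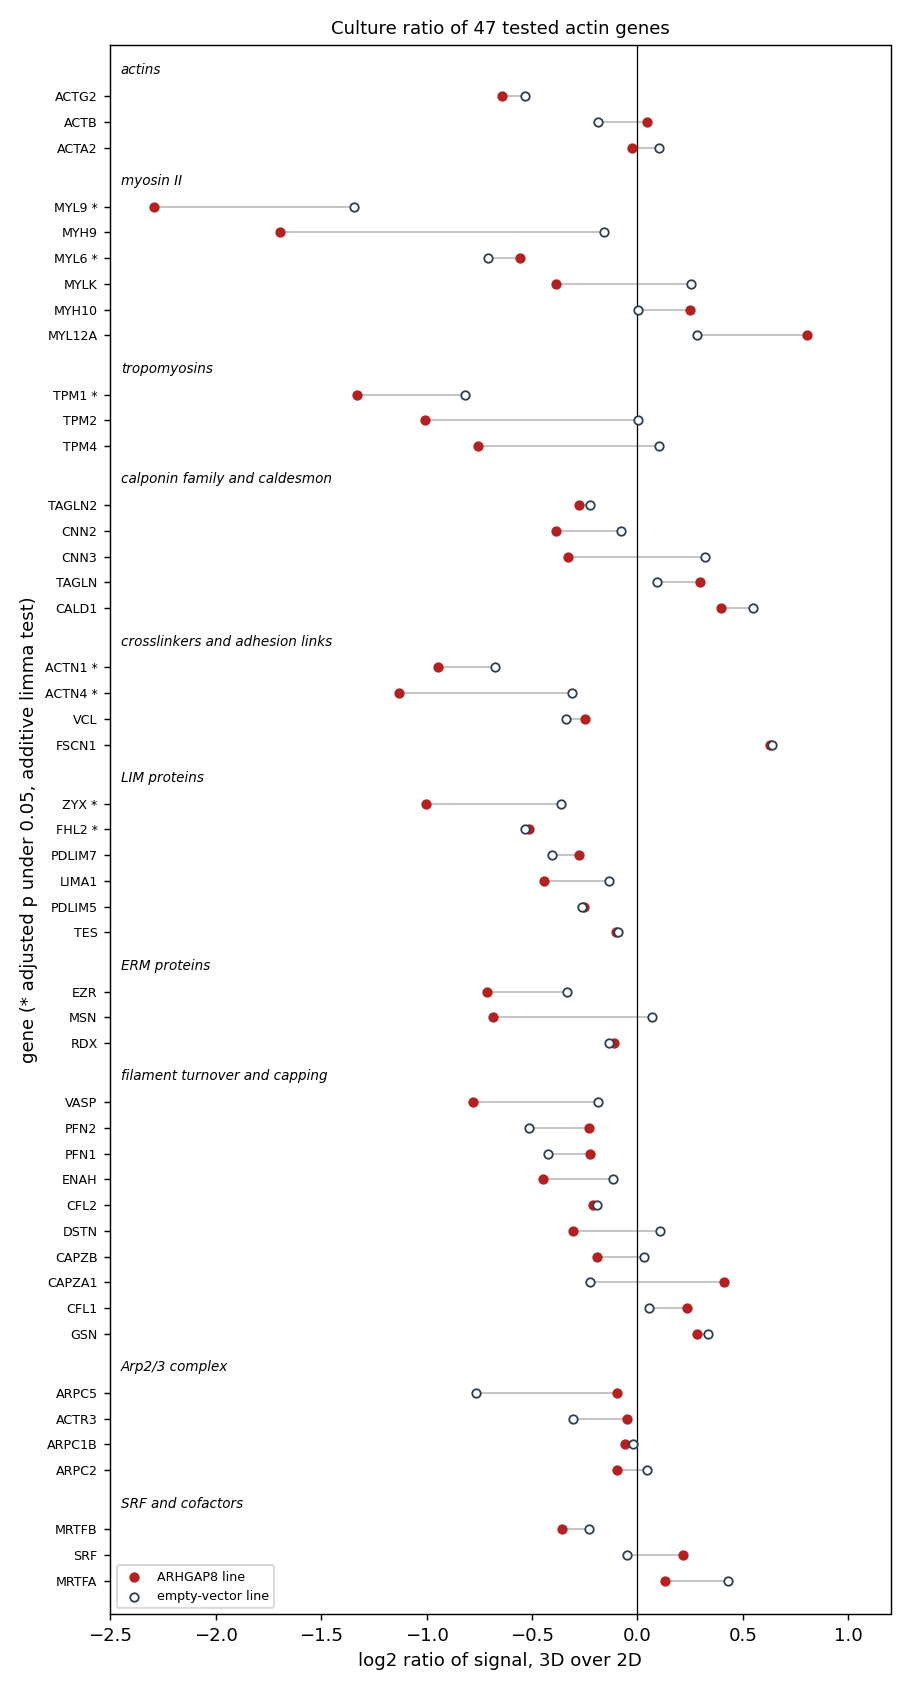
Log2 ratio of signal in 3D over 2D for the 47 tested genes, grouped by role, with filled points for the ARHGAP8 line and open points for the empty-vector line (1 array over 1 array each). The 7 genes marked with an asterisk passed the additive limma test, all to the left of 0, and MYL9 lies farthest left at -2.29 and -1.34.

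Myosin II showed the widest spread of any role. MYL9, a regulatory light chain found mainly in smooth muscle and contractile non-muscle cells, had signals of 92.6 and 117 in the ARHGAP8 and empty-vector lines in 3D, against 454 and 298 in 2D. Both 3D signals lay far below both 2D signals and close to the floor. MYL9 fell by 1.82 ± 0.26 log2 (moderated SE, 4 arrays), a 3.53-fold lower signal, with an adjusted p of 0.000154 in limma. Its ratios were -2.29 in the ARHGAP8 line and -1.34 in the empty-vector line. The other MYL9 probe set was below the floor on all 4 arrays.

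MYL6, the essential light chain of non-muscle myosin II, had signals of 1848 and 1350.0 in 3D, against 2721 and 2205 in 2D. The groups did not overlap, and MYL6 fell by 0.63 ± 0.16 log2 (moderated SE, 4 arrays; adjusted p 0.0211 in limma). Its other probe set was lower in 3D as well, with ratios of -1.62 and -0.17, but was below the floor on the ARHGAP8 3D array.

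MYL12A encodes another regulatory light chain, which serves non-muscle myosin in most cells. It read the opposite way to MYL9, with signals of 1213 and 1029.8 in 3D, against 696 and 846 in 2D. Its log2 value of 0.54 ± 0.17 narrowly missed the threshold, with an adjusted p of 0.0541 in limma, and its other probe set above the floor read -0.16.

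MYH9, the heavy chain of non-muscle myosin IIA, had signals of 86.1 and 184 in 3D, against 279 and 205 in 2D. The low value came from the ARHGAP8 line, where the log2 ratio was -1.70, while the empty-vector line read -0.16. Its mean of -0.93 ± 0.30 missed the threshold (adjusted p 0.0645 in limma). MYH10, the heavy chain of myosin IIB, read 0.12, and MYLK, the kinase that phosphorylates the regulatory light chain, -0.07.

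Among tropomyosins, which line the filament groove and govern access of myosin, TPM1 had signals of 536 and 444 in 3D, against 1349 and 783 in 2D. TPM1 fell by 1.07 ± 0.17 log2 (moderated SE, 4 arrays; adjusted p 0.00046 in limma), with ratios of -1.33 in the ARHGAP8 line and -0.82 in the empty-vector line. Its 2 other probe sets above the floor on all arrays read -1.30 and -0.85, so all of them were lower in 3D. TPM2 and TPM4 gave unlike ratios in the lines. TPM2 had ratios of -1.01 in that line and 0.00 in the empty-vector line, and TPM4 -0.76 and 0.10. Neither passed, with adjusted p of 0.291 and 0.325 in limma.

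Both alpha-actinins, which crosslink filaments into bundles, fell. ACTN1 had signals of 1270.5 and 1501 in 3D, against 2444 and 2399.8 in 2D, and fell by 0.81 ± 0.16 log2 (moderated SE, 4 arrays; adjusted p 0.00385 in limma). Its 2 other probe sets read -0.87 and -0.77. ACTN4 had signals of 461 and 839.7 in 3D, against 1010.0 and 1043 in 2D. It fell by 0.72 ± 0.18 (adjusted p 0.0188 in limma), and the ARHGAP8 line, at -1.13, showed more of it than the empty-vector line, at -0.31. VCL, which encodes vinculin of cell adhesions, read -0.29 without passing. FSCN1, which encodes the filopodial bundler fascin, was at the floor on both 2D arrays, with signals of 112 on each 3D array, and read higher by at least 0.63 log2 without passing. It entered the test only through its 3D signals, and its 2D values were set to the floor, so that its error is set in part by the floor.

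On the probe sets used, all 6 listed LIM-domain genes measured were lower in 3D in both lines, against 28.9% of all genes tested. Of the 6, 2 passed, where 4.15% of all genes tested were called lower and 2.83% higher. Outside the list, PDLIM1 and LASP1 also encode LIM-domain proteins, and neither passed. PDLIM1 read 0.07 and 0.52 in the ARHGAP8 and empty-vector lines, and LASP1 -0.82 and -0.03. ZYX, which encodes zyxin, a mechanosensitive protein of focal adhesions and stress fibres, had signals of 392 and 603 in 3D, against 786 and 776 in 2D. ZYX fell by 0.68 ± 0.18 log2 (moderated SE, 4 arrays; adjusted p 0.0226 in limma), with a ratio of -0.36 in the empty-vector line and one just past a 2-fold fall in the ARHGAP8 line, and its other probe set read -0.76. FHL2, a LIM-only cofactor that binds integrins and SRF, had signals of 1009 and 965 in 3D, against 1441 and 1397 in 2D. It fell by 0.52 ± 0.16, with an adjusted p of 0.0466 in limma, and this call was lost in 8 of the 9 alternatives; the lines gave ratios of -0.51 and -0.53. PDLIM7, LIMA1, PDLIM5 and TES read -0.34, -0.29, -0.26 and -0.10. The other probe set of TES above the floor on all arrays read 0.10, with -0.20 in the ARHGAP8 line and 0.39 in the empty-vector line.

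**Figure D2:**
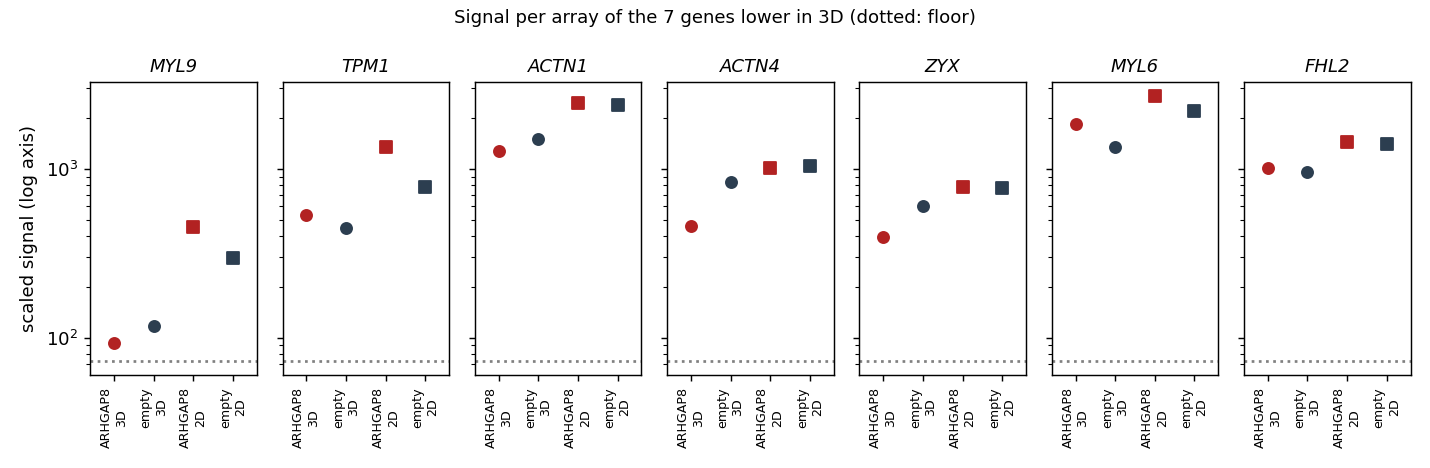
Scaled signal on each of the 4 arrays, on a log axis, for the 7 genes that fell in 3D, with circles for 3D and squares for 2D, red for the ARHGAP8 line and dark blue for the empty-vector line. Every 3D point lies below both 2D points of its gene, as for 24 of the 47 tested genes, these 7 included. The dotted line marks the floor of 72.3.

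The 7 genes had 12 probe sets of their own above the floor on all arrays. Of these, 7 gave the calls and 5 were further readings of TPM1, ACTN1 and ZYX. On each of the 5 both 3D signals were below both 2D signals. These 5 belong to genes picked by the test. The same held for 24 of the 47 tested genes on the probe sets used, and the share over all genes was not counted. PDLIM5, a scaffold that links kinases to alpha-actinin, had a reading of -0.26 on the probe set used, but -1.17 and -0.96 on others. The first of these had signals of 188 and 178 in 3D, against 397 and 425 in 2D, with no overlap. Its remaining probe sets above the floor on all arrays read -0.09 and 0.11. All 8 probe sets of CALD1 above the floor on all arrays, for the myosin regulator caldesmon, were higher in 3D when averaged over the lines, at 0.10 to 0.57. The probe set used had signals of 1667 and 1832 in 3D, against 1268 and 1251 in 2D, and its 0.47 ± 0.16 missed the threshold with an adjusted p of 0.0789 in limma.

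**Figure D3:**
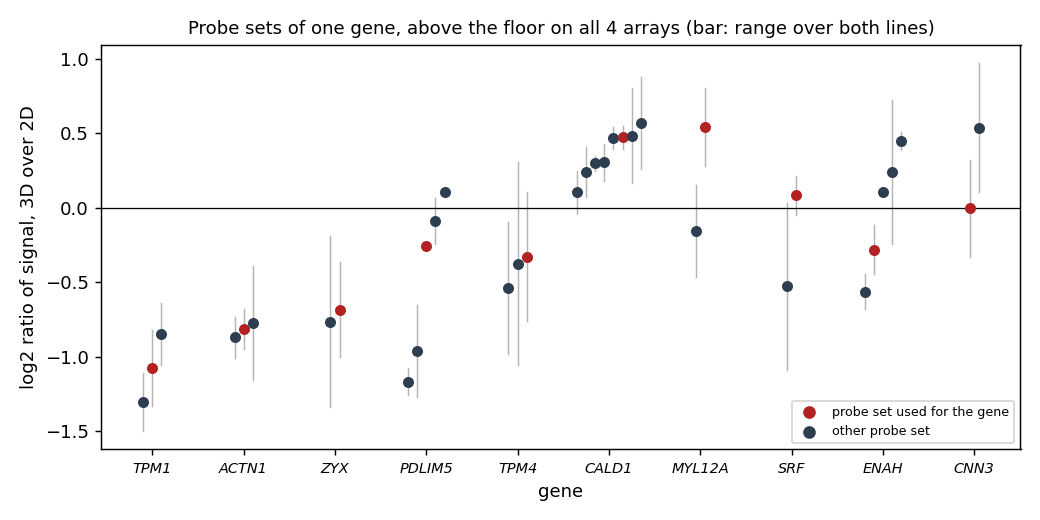
Log2 ratio of 3D over 2D, averaged over the lines, for each probe set above the floor on all 4 arrays in 10 genes with several, with the probe set used in red and the others in dark blue; bars span the ratios of both lines. The probe sets of TPM1, ACTN1 and ZYX all lie below 0 and those of CALD1 above it, while those of PDLIM5, ENAH, SRF and MYL12A lie on both sides.

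Actin genes themselves did not pass. ACTA2, the smooth muscle alpha-actin and a common readout of MRTF activity, had signals of 228 and 264 in 3D, against 232 and 246 in 2D. ACTG2, the enteric gamma-actin, had signals of 111 and 108 in 3D, against 173 and 157 in 2D, without overlap, but its mean of -0.59 ± 0.25 missed the threshold (adjusted p 0.173 in limma). ACTB, cytoplasmic beta-actin, read -0.07, with signals of 7981 and 7111 in 3D, against 7743 and 8086 in 2D. The 9 probe sets shared by ACTB and ACTG1 read 0.21 to 0.32 in the ARHGAP8 line and -0.11 to 0.07 in the empty-vector line. Since these transcripts are alike, the signal of one cannot be separated from that of the other.

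The ACTB control probe sets also gave a measure of RNA quality that moved with the culture. The signal at the 3' end over that at the 5' end was 1.32 and 1.23 in 3D, against 1.05 and 1.10 in 2D, the ARHGAP8 line first. For GAPDH it was 0.925 and 0.901 in 3D, against 0.899 and 0.874 in 2D. The part of this in the culture ratios was not tested.

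TAGLN, which encodes transgelin, another smooth muscle marker and MRTF target, lay near the floor, with signals of 97.0 and 80.7 in 3D, against 78.8 and 75.7 in 2D. Its relatives TAGLN2, CNN2 and CNN3 read -0.25, -0.23 and -0.00. The other probe sets of TAGLN2 and CNN3 read -0.28 and 0.54. Of the calponin family and caldesmon, 0 of 5 tested genes passed. At an unadjusted p under 0.05 in limma there was 1 of 5, against 2778 of all 13239. Of the 20 genes on the list that are widely described as SRF-MRTF targets, 16 were tested, 4 fell and 0 rose. The 4 were MYL9, TPM1, FHL2 and ZYX, all among the 7 counted above. The median of the 16 was -0.31. All genes tested gave 4.15% lower and 2.83% higher, with a median of 0.03.

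SRF and its cofactors did not pass either. SRF had signals of 155 and 134 in 3D, against 134 and 138 in 2D, and a mean of 0.08 ± 0.25. Its other probe set had 76.5 and 133 in 3D, against 163 and 129.7 in 2D, or -0.53, so the direction depended on the probe set. MRTFA had 157 and 144 in 3D, against 144 and 107 in 2D (0.28 ± 0.25), and another of its probe sets, below the floor on the array of ARHGAP8 cells in gel, read -0.63. MRTFB had 239 and 219.5 in 3D, against 307 and 257 in 2D (-0.29 ± 0.22).

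Of the genes of filament turnover 0 of 10 passed, where 4.15% of all genes tested were called lower and 2.83% higher. At an unadjusted p under 0.05 in limma there were 2 of 10, against 2778 of all 13239. Cofilins and destrin, which sever filaments, read 0.15 for CFL1, -0.20 for CFL2 and -0.10 for DSTN. The profilins PFN1 and PFN2, which feed monomers to growing ends, read -0.33 and -0.37, with PFN1 lower past the threshold under quantile normalization, and the elongation factors VASP and ENAH -0.48 and -0.28. Capping subunits CAPZA1 and CAPZB read 0.09 and -0.08. GSN, which encodes the severing and capping protein gelsolin, had signals of 2219.9 and 2472 in 3D, against 1827 and 1958 in 2D. It was among the 4 highest ratios, at 0.31, without passing. Its other probe sets above the floor on all arrays read 0.62 and -0.43, so the direction depended on the probe set. The ERM genes EZR, MSN and RDX, whose products tie filaments to the membrane, read -0.52, -0.31 and -0.12, and 0 of 3 passed. The other probe sets of RDX above the floor on all arrays read 0.52 and 0.04, and that of EZR -0.39. The direction for RDX thus depended on the probe set.

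Of the Arp2/3 complex, which nucleates branched filaments, 4 listed genes were tested and 0 passed: ARPC5 read -0.43, ACTR3 -0.18, ARPC1B -0.04 and ARPC2 -0.03. The wider list of other actin-binding proteins held ARPC3, which read 0.14 without passing, and 2 more subunits that fell. ARPC4 had signals of 206 and 107 in 3D, against 358 and 352 in 2D, and fell by 1.25 ± 0.25 log2 (adjusted p 0.00302 in limma). ARPC1A fell by 0.58 ± 0.16 (adjusted p 0.0265 in limma). In that wider list of 30 genes, 25 were tested, 4 fell and 2 rose, with a median of 0.02. Over all genes tested 4.15% were lower and 2.83% higher, with a median of 0.03. CORO1C, a coronin of the cell edge, fell by 0.73, and the cytokinesis scaffold ANLN fell by 0.70. MYO10, a motor of filopodia, rose by 0.67, and CTTN, which encodes the Arp2/3 activator cortactin, rose by 0.58.

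Of 8 immediate early genes that SRF controls with another cofactor family, the TCFs, 4 were tested. EGR1 rose by 0.97 ± 0.18, with signals of 1121 and 588 in 3D, against 472 and 363 in 2D (adjusted p 0.00162 in limma), while its 2 other probe sets read 0.05 and 1.21. IER2, MCL1 and DUSP1 did not pass. In RNA from whole cultures, fewer cells expressing a gene and less RNA per cell cannot be told apart.

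By size alone, 6 of the 47 genes were at least 2-fold lower in 3D in the ARHGAP8 line and 1 in the empty-vector line, against 1.96% and 1.29% of all genes tested. None were at least 2-fold higher in either line, where all genes gave 1.81% and 1.73%. The 6 were MYL9, MYH9, TPM1, TPM2, ACTN4 and ZYX, and the 1 was MYL9. The ratio in the ARHGAP8 line was the lower of the pair for 30 of 47 genes, or 63.8%, against 49.1% of all genes tested, a difference that was not tested.

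The second comparison asked how the ARHGAP8 line differed from the empty-vector line. No gene on the list passed the additive limma test for the plasmid, which called 0.0680% of all genes as higher and 0.0604% as lower. At an unadjusted p under 0.05 there were 7 of 47, against 1078 of 13239. They were TPM1, MYL6 and CAPZA1, with means over the cultures of 0.53, 0.38 and 0.41, and ACTN4, TPM4, MSN and ARPC1B, at -0.46, -0.44, -0.40 and -0.37. The smallest adjusted p among them was 0.293 in limma, for TPM1. A p that misses the threshold does not show that the lines were alike.

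The ratios between the lines share arrays with the culture ratios above and are given as values. ARPC1B, a subunit of the Arp2/3 complex, had the most even difference of these 7. Its signals were 1963 in the ARHGAP8 line and 2566 in the empty-vector line in 3D, and 2045 and 2603 in 2D. The ratios were -0.39 and -0.35. MYL6 was higher in both cultures too on the probe set used, by 0.45 in 3D and 0.30 in 2D. Its other probe set read -1.48 in 3D, where it was below the floor in the ARHGAP8 line, and -0.03 in 2D.

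On the probe sets used, the ratio between the lines was not the same in gel and on plastic for several genes. In 2D the highest log2 ratios over the empty-vector line were 0.79 for TPM1, 0.69 for MYLK, 0.61 for MYL9, 0.52 for CNN3, 0.48 for EZR, 0.47 for TPM2 and 0.44 for MYH9. In 3D the same genes read 0.27, 0.05, -0.34, -0.13, 0.10, -0.55 and -1.10. For CNN3 the other probe set above the floor read 1.32 in 3D and 0.45 in 2D, so its direction in 3D depended on the probe set. For TPM1 the other 2 probe sets above the floor on all arrays read 0.56 and -0.08 in 3D, and 0.14 and 0.31 in 2D. Those of MYLK and EZR read 0.18 and -0.06 in 3D, and 0.23 and 0.25 in 2D. MYL9, TPM2 and MYH9 had no other probe set above the floor on all arrays. The genes with these highest 2D ratios were picked for those values, and MRTFA followed at 0.43, so this is a description. No gene on the list was 2-fold apart in 2D, where all genes gave 0.227% higher and 0.234% lower.

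In 3D the lowest ratios were those of MYH9, then TPM4 and ACTN4 at -0.87 each and MSN at -0.78. MYH9 was the 1 gene at least 2-fold lower in 3D, where all genes gave 1.33% lower and 1.11% higher. MSN, which encodes moesin, had signals of 1623 in the ARHGAP8 line and 2785 in the empty-vector line in 3D, and 2609 and 2656 in 2D. For TPM4, the other 2 probe sets above the floor read -0.40 and -0.88 in 3D and 0.48 each in 2D, where the probe set used read -0.01. All of these 3D ratios rest on the array with raised ribosomal RNA signals, whose part in them was not tested.

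**Figure D4:**
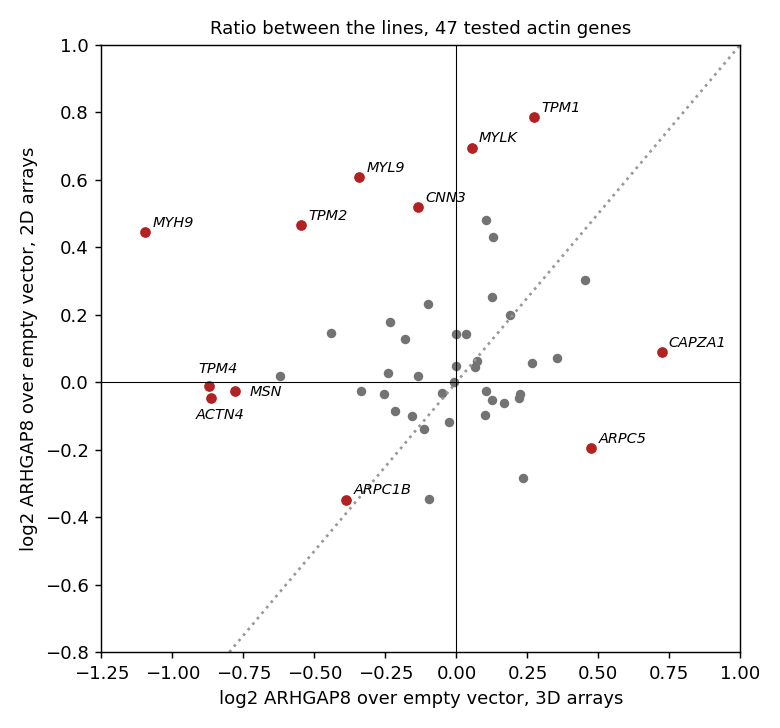
Log2 ratio of the ARHGAP8 line over the empty-vector line for the 47 tested genes, in 3D (horizontal axis) and in 2D (vertical axis), with 12 genes of large or even ratios labelled in red; the dotted line marks equal ratios. MYH9, TPM2 and MYL9 lie at the upper left, below 0 in 3D and above 0 in 2D, and ARPC1B lies near the dotted line.

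Whether the ratio between the lines was itself different in gel and on plastic cannot be tested with 4 arrays. Differences of the log2 ratios, 3D minus 2D, were largest in size for MYH9, TPM2 and MYL9, at -1.54, -1.01 and -0.95. MYH9 and TPM2 had signals near the floor on the ARHGAP8 3D array, 86.1 and 76.1, and MYL9 had 92.6. The ratio was higher in 2D and lower in 3D for 13 of 47 genes, or 27.7%, and the reverse for 8, or 17.0%, against 21.5% and 23.5% of all genes tested.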

How the data were processed

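Total RNA of 4 cultures was measured on 1 Affymetrix array each. The authors deposited 1 linear signal intensity per probe set. The submitters' processing notes name MAS5; the software version and the detection calls are not given in the sources used here. Here a 2% trimmed mean, already 150.0 on each array, was made equal across arrays, and signals were floored at 72.3 and log2-transformed. Symbols came from the platform annotation, updated by gene identifier through RefSeq; probe sets naming several genes named none. The additive model of plasmid and culture was fitted to all 13239 genes tested with limma 3.58.1 under R 4.3.3 (eBayes with trend, two-sided), after it was tested on simulated data. Nothing in the labels shows separate cultures as repeats, so each p-value tests the culture or plasmid effect against an error taken from the departure of these arrays from additivity, moderated over all genes, and carries no spread between repeat cultures.

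The genes and lists were chosen with earlier results of these data known. Named in full were genes past the test, SRF with its cofactors and, where all 4 signals exceeded the floor (which leaves out FSCN1), the 4 highest and 4 lowest culture ratios and the 3 largest differences of ratios. In the other lists, genes past the test were named; 1 further list is not reported here. Genes given only with ratios were named by role. Those described for their 2D ratios, PDLIM5, PDLIM1, LASP1, ARPC3 and the 4 promoters were chosen after their values were seen. The 9 alternatives concerned scaling, floor, filter, choice of probe set and variance trend.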

Additional observations from a re-analysis of the deposited data

Results flagged for a closer look

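The ratio of the ARHGAP8 line over the empty-vector line was below 0 in 3D and above 0 in 2D for MYH9 and TPM2 and differed by at least 2-fold. MYH9 read -1.10 in 3D and 0.44 in 2D, a difference of -1.54. TPM2 read -0.55 in 3D and 0.47 in 2D, a difference of -1.01. With 1 array per group neither difference was tested. Outside the genes compared, the 18S ribosomal RNA control probe sets had a median signal of 626 for ARHGAP8 cells in 3D, against 27.7 for empty-vector cells in 3D, 49.4 for ARHGAP8 cells in 2D and 44.9 for empty-vector cells in 2D.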

How the results depend on the processing

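Of the 9 alternatives, 5 called 5 to 8 genes as lower in 3D, against the 7 reported, and the other 4 called fewer. MYL9 and TPM1 passed in 7 of 9, MYL6 and ACTN1 in 6, ACTN4 and ZYX in 4 and FHL2 in 1, that with genes above the floor on all 4 arrays. Calls gained were MYH9 as lower and MYL12A as higher in that setting, so that 1 gene was higher in 3D, and PFN1 as lower with quantile normalization. Cyclic loess called 4 as lower and no intensity trend 2. The mean of the probe sets of a gene called 0 and moved the log2 value to -0.91 for MYL9 and -0.57 for TPM1, with 37 culture calls over all genes. That mean takes in probe sets set to the floor, such as the other MYL9 probe set, below it on all 4 arrays. No filter on low values also called 0, as it did over all genes, with prior degrees of freedom of 0.866; it left the log2 value of MYL9 at -1.82, and its count says nothing about these genes. No alternative made a plasmid call among these genes. Genes 2-fold apart between the lines in 3D numbered 0 with log2(value + 16) and 2 with the highest single value, and those between cultures in the empty-vector line 0 with the mean of probe sets.

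Direction changed only for values that had not passed. With the mean of probe sets the culture ratio read -0.22 for SRF and 0.016 for MRTFB, and the ratio between the lines -0.19 for MYL6, 0.035 for MYL12A, 0.00090 for CALD1, 0.0020 for ACTN1 and -0.074 for SRF. With the highest single value SRF read -0.53 for the culture and -0.23 between the lines. Without the ARHGAP8 3D array no residual degree of freedom is left and only single ratios remain. The ratio between the lines was then 0.44 for MYH9, 0.47 for TPM2, 0.019 for CALD1, 0.026 for ACTN1, 0.019 for ZYX and -0.048 for SRF. The culture ratio was then 0.0027 for TPM2 and -0.051 for SRF, and -1.34, -0.82, -0.71, -0.68, -0.53, -0.36 and -0.31 for MYL9, TPM1, MYL6, ACTN1, FHL2, ZYX and ACTN4, so that for ACTN4 and ZYX the log2 value moved by over 1.5 times. No paired analysis was possible because each group holds 1 array; the additive model already holds line and culture as blocks.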

Other observations

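CNN3, which encodes an acidic calponin, had a pair of probe sets that parted on the ARHGAP8 3D array. The one used read 1184 there, against 1299.5 on the empty-vector 3D array, and the other read 2281 against 916. ENAH, which encodes the elongation factor Mena, had 5 probe sets above the floor on all arrays, with culture ratios from -0.56 to 0.45.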
